A study of Mus musculus with 56 samples.

Results

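The genes described here encode 8 integrin chains (Itgb1, Itga4, Itgal, Itgae, Itgb2, Itgb7, Itgav and Itga6), the hyaluronan receptor CD44 (Cd44) and the lymphocyte surface protein Ly6C (Ly6c2). They were taken by Ensembl identifier from the RNA count table of OVA:Kb-specific CD8+ T cells, and all 10 were found among its 55359 genes. The list of names was drawn up with earlier results of these data known. The question was how their transcripts differed between fetus/graft-specific CD8+ T cells (T FGS) of naive mice and of mice with memory, with and without a semi-allogeneic pregnancy.

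All cells came from spleen and lymph nodes of young adult female C57BL/6 mice, with no genetic change in any group, and were chosen by binding of OVA:Kb tetramers. Naive mice received no treatment. Sensitized mice had rejected a skin graft from male 2W-OVA.BALB/c donors, which carry the OVA model antigen in all tissues, and were taken about a month or more after grafting. Naive+Pregnancy (N+P) and Sensitized+Pregnancy (S+P) mice had litters by 2W-OVA.BALB/c males, the latter after the graft, and were taken in the first days after delivery. T FGS of N+P mice were sorted into C1 (PD1-) and C5 (PD1+CD73+), and those of S+P mice into C4 (PD1-), C5 (PD1+CD73+) and C7 (PD1+CD73-). In each pregnant group the subset and the pregnancy thus vary together against the T FGS of the unmated mice, whose labels name no subset. The parts of subset and pregnancy in a difference cannot be told apart. Antibodies against CD44 protein were in the cytometry panels with which the subsets were defined, and CD11c, the product of Itgax, was among the targets in the colour of their exclusion channel.

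Integrins are pairs of an alpha and a beta chain that anchor T cells to vessel walls, matrix and other cells. Itgb1 pairs with many alpha chains, among them Itga4, to bind VCAM-1 and fibronectin, while Itga4 with Itgb7 binds MAdCAM-1 in gut vessels and Itgae with Itgb7 binds E-cadherin on epithelium. Itgal with Itgb2 forms LFA-1, the receptor for ICAM proteins on antigen-presenting cells and endothelium. Circulating naive CD8+ T cells carry little surface CD44, Ly6C and beta1 integrin, and memory CD8+ T cells carry more, so these proteins serve widely as marks of past activation.

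Libraries were summed per replicate number and group. The 30 samples compared were 3 Naive, 4 Sensitized, 3 N+P C1, 3 N+P C5, and, from S+P mice, 6 of C4, 6 of C5 and 5 of C7. Each sample was from 200 sorted cells. The total count per sample was between 15547934 and 54809406. One library held the same counts under Naive replicate 1 and S+P C4 replicate 1 and was left out of both, and a pair of S+P C7 libraries that were nearly the same (Pearson r of their log2 scaled counts 0.9985) was averaged and counted as 1 sample. In replicate 3 of S+P C7 and replicates 2 and 3 of S+P C4 (3 samples) fewer than 9000 genes were detected. The summed level of 8 CD8 T cell markers was between 5834 and 10008 CPM (counts scaled to a common library size) in all samples, so the labelled cell type was present throughout. S+P C7 replicate 3 also held 16515 CPM of 3 erythroid genes and 469 CPM of 3 NK genes. The labels call the replicates separate samples, and p-values measure the spread between these samples only. In bulk RNA a lower level in each cell and fewer cells with the transcript cannot be told apart.

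All 10 genes were covered by reads in most samples. In the GRCm39 build and the GENCODE annotation, Itgb1 lies on chromosome 8 (129411876 to 129460618, plus strand), Itga4 on chromosome 2 (79085660 to 79163467, plus), Itgal on chromosome 7 (126895432 to 126934320, plus), Itgae on chromosome 11 (72981409 to 73039917, plus) and Itgb2 on chromosome 10 (77366086 to 77401542, plus). Itgb7 lies on chromosome 15 (102124429 to 102140379, minus), Itgav on chromosome 2 (83554403 to 83637260, plus), Itga6 on chromosome 2 (71575960 to 71689757, plus), Cd44 on chromosome 2 (102641486 to 102732010, minus) and Ly6c2 on chromosome 15 (74980003 to 74988467, minus). Cerkl overlaps Itga4 and Haspin lies inside Itgae, both on the opposite strand, and short pseudogenes or predicted genes lie within Itgav, Itga6 and Cd44. The library kit does not mark strand, so reads of these genes and their antisense partners cannot be told apart. Ly6c2 has a near copy, Ly6c1, and no sample had more than 2.88 CPM of Ly6c1. Per the paper, reads that did not map uniquely were removed, so reads shared by these genes would be lost from both. The Ly6c1 level therefore cannot show how far such reads affect the Ly6c2 values.

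Promoter sequences were given by RefSeq for 6 of the 10 genes. Those of Cd44 and Ly6c2, the classical pair of memory marks, are shown because their RNA levels parted in the PD1+CD73+ cells after pregnancy. Each runs 5′ to 3′ from 250 bases before to 50 after the RefSeq start. Each matched GRCm39 exactly at 1 place, that of Cd44 at chr2:102731961-102732260 and that of Ly6c2 at chr15:74983771-74984070, both on the minus strand. Of these windows, 50 bases of Cd44 and 39 bases of Ly6c2 fell in the first exon of the canonical transcript. Capitals mark a match on either strand to TGTGGT, the core of RUNX sites, or to CCGCCC, the core of GC boxes.
Cd44: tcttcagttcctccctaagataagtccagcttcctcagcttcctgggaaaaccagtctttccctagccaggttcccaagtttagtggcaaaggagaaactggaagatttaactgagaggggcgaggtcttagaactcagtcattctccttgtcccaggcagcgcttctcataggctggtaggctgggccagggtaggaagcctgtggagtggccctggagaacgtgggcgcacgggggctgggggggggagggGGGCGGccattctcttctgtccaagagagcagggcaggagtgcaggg
Ly6c2: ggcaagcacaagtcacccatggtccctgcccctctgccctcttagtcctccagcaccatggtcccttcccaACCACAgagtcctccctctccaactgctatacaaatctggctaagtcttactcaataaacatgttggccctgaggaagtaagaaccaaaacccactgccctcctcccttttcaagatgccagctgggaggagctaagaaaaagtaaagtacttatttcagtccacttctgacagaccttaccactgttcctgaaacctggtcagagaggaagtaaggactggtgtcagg
The Ly6c2 window held 1 match to TGTGGT, which 16.8% of all 32851 RefSeq promoters of this length contain, and no CpG pair. The Cd44 window held 1 match to CCGCCC, present in 35.7% of promoters, and 6 CpG pairs. Neither held the AP-1 sequence TGANTCA, found in 7.81% of promoters. The matches overlapped no other match and describe letters only.

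The level of Itgb1 divided the 7 groups most clearly. In Naive T FGS it was 38.5, 56.9 and 39.0 CPM in the 3 samples. In N+P C1 it was 114, 105 and 162 CPM, and in N+P C5 it was 1265, 631 and 1350 CPM. The 3 groups of mice without a graft therefore did not overlap, with C5 the highest.

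In Sensitized T FGS Itgb1 was 297, 363, 472 and 435 CPM. Among S+P cells the lowest, median and highest values were 115, 636 and 1671 CPM in C4 and 566, 919 and 1113 CPM in C5, and the 5 C7 samples had 741, 362, 681, 506 and 482 CPM. Both ends of the wide C4 range were samples with fewer than 9000 genes detected. In order of mean level, Naive was separate from N+P C1, and N+P C1 from Sensitized. From Sensitized upward (S+P C7, then C4, then C5 and last N+P C5) each overlapped its neighbour. The lowest S+P C4 sample, at 115 CPM, lay within the N+P C1 range.

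**Figure D1:**
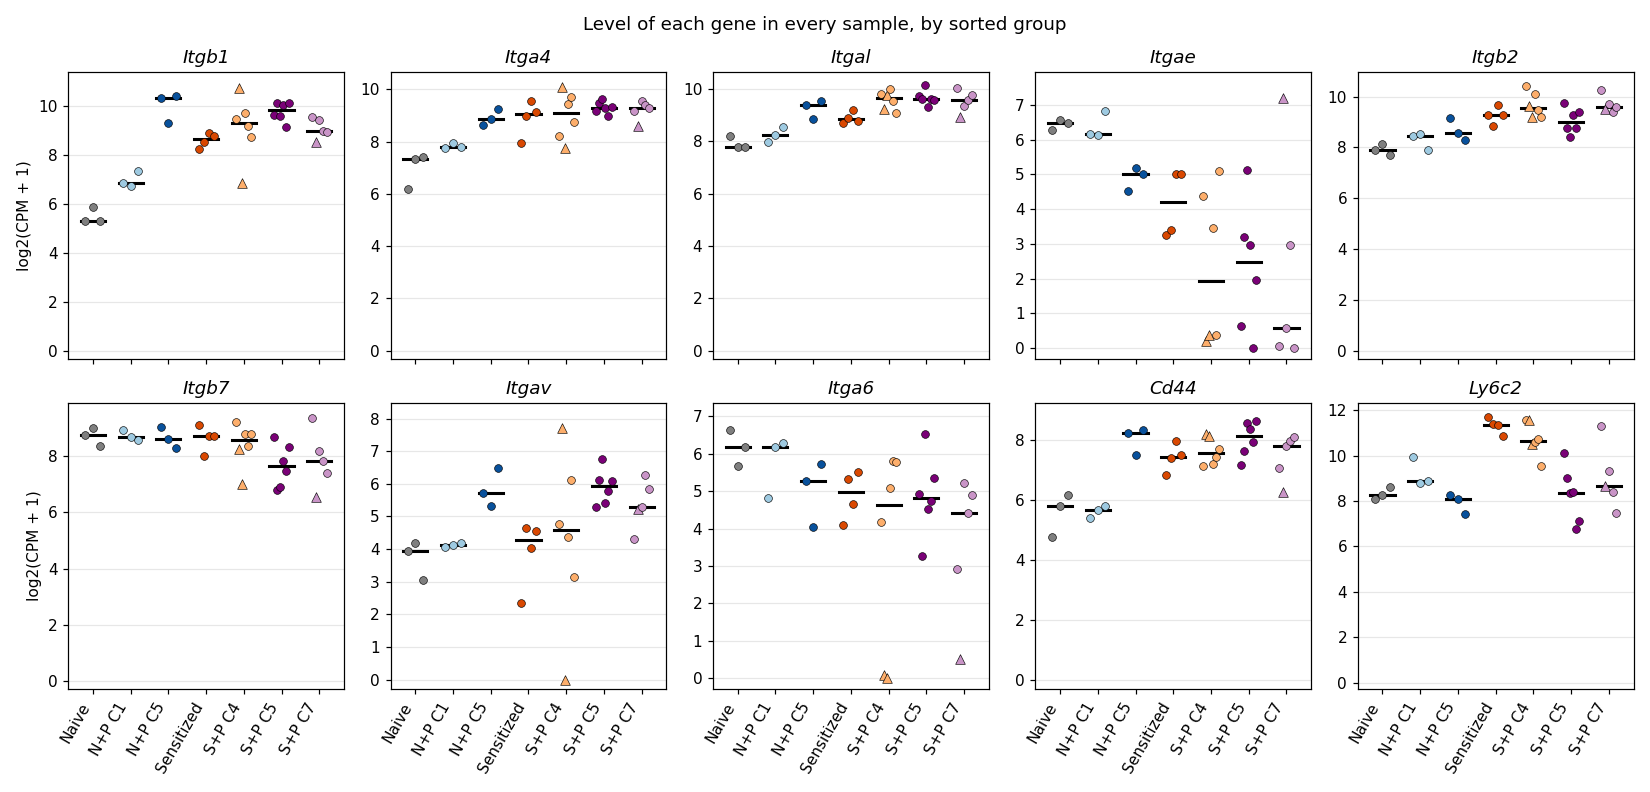
Level of the 10 genes as log2(CPM + 1) (vertical axis of each panel) in every sample of the 7 groups (horizontal axis). Points are samples, triangles are the 3 samples with fewer than 9000 genes detected, and lines are group medians. Itgb1 stands lowest in Naive (38.5 to 56.9 CPM) and highest in N+P C5 (631 to 1350 CPM), and Ly6c2 stands highest in Sensitized (1869 to 3298 CPM).

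A difference was called at a Benjamini-Hochberg adjusted p below 0.1 over all 19657 genes tested with edgeR's quasi-likelihood test, together with an absolute log2 fold change above 0.9. Over all groups at once, 6 of the 10 genes passed the adjusted p (Itgb1, Itga4, Itgal, Itgb2, Cd44 and Ly6c2), against 1.84% of all genes. The adjusted p was 4.37e-05 for Itgb1, 0.00116 for Itgal, 0.00487 for Ly6c2, 0.00787 for Itgb2, 0.0092 for Cd44 and 0.0242 for Itga4. Itgae, Itgb7, Itgav and Itga6 did not pass. With no filter on low counts the same 6 genes passed, but against 42.2% of all genes. The 6 genes that passed are the beta1 and alpha4 chains, both chains of LFA-1 and the pair of memory marks.

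Between Sensitized and Naive T FGS, which differ by the skin graft, Itgb1 rose 8.75-fold and Itga4 rose 3.88-fold. Itgb1 was 44.8 ± 10.5 CPM (SD, n = 3) in Naive and 392 ± 77.8 CPM (n = 4) in Sensitized, a log2 fold change of 3.13 (SE 0.53, adjusted p = 0.00382). Itga4 was 72.5, 159 and 168 CPM in the Naive samples and 249, 509, 746 and 562 CPM in the Sensitized ones, with no overlap, and its log2 fold change was 1.96 (SE 0.44, adjusted p = 0.0826). These 2 were called, both higher, against 0.153% of all genes. The Itgb1 call was lost without Naive replicate 1 (adjusted p = 0.105), and the Itga4 call without any 1 of the 7 samples but Sensitized replicate 1 (adjusted p up to 0.81).

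Ly6c2 had the second largest fold of the 10 genes in that comparison but was not called. It was 275, 304 and 387 CPM in Naive and 3298, 2655, 2581 and 1869 CPM in Sensitized, a log2 fold change of 3.01 (SE 0.73, p = 0.000246, adjusted p = 0.146). Cd44 was 26.1, 55.1 and 71.1 CPM against 113, 168, 251 and 180 CPM (log2 fold change 1.81, SE 0.49, adjusted p = 0.295). For both memory marks every Sensitized sample lay above every Naive sample. Both were called by DESeq2 (5.87% of all genes) and by limma voom (2.9%).

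The LFA-1 chains showed smaller differences of the same sign. Itgb2 was 235, 277 and 207 CPM in Naive and 617, 463, 808 and 616 CPM in Sensitized (log2 fold change 1.38, SE 0.35, adjusted p = 0.213). Itgal was 292, 216 and 222 CPM in Naive and 419, 478, 581 and 433 CPM in Sensitized (log2 fold change 0.97, SE 0.29, adjusted p = 0.536). Neither was called by edgeR on all 30 samples, and neither overlapped. Both were called by DESeq2, and Itgb2 without Itgal by limma voom.

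Itgae and Itga6 had the opposite order. Itgae was 77.5, 93.5 and 88.3 CPM in Naive and 8.52, 9.55, 31.1 and 31.1 CPM in Sensitized, and Itga6, the alpha chain of a laminin receptor, was 98.1, 50.2 and 71.2 CPM against 16.0, 39.3, 24.0 and 44.99 CPM. Both had an unadjusted p above 0.05, while their samples did not overlap. In all, 8 of 10 genes did not overlap between Sensitized and Naive, against 7.59% of all genes, and 6 had an unadjusted p under 0.05, all higher, against 7.82%. The median log2 fold change of the 10 genes was 1.18, beside 0.04 over all genes. Itgb7 (324 to 509 CPM in Naive, 257 to 546 CPM in Sensitized) and Itgav (7.37 to 17.2 and 4.10 to 23.9 CPM) overlapped.

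Pregnancy without a graft was examined first in the PD1- subset C1. No gene of the 10 and none of all 19657 genes was called between N+P C1 and Naive by edgeR (0%). Itgb1 alone had an unadjusted p under 0.05 (log2 fold change 1.5, SE 0.51, p = 0.00599, adjusted p = 0.997), where 3.23% of all genes did. Itga4 (216, 246 and 219 CPM) and Ly6c2 (992, 441 and 470 CPM) also lay above every Naive sample, which made 3 of 10 genes without overlap against 7.3% of all genes. Cd44 was 41.7, 50.03 and 54.6 CPM in N+P C1, within the Naive range. The comparison with DESeq2 and with limma voom gave 0 called genes of the 10 as well (4.06% and 0.438% of all genes).

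The PD1+CD73+ subset C5 of N+P mice differed more. Against Naive, Itgb1 rose 24.2-fold, from 44.8 ± 10.5 to 1082 ± 393 CPM (SD, n = 3 each; log2 fold change 4.59, SE 0.58, adjusted p = 0.000104). It was 1 of the 8 genes called in that comparison (0.0407%), and it was called again under every alternative setting and with each replicate left out. Naive replicate 2, whose 2 technical libraries gave 81.8 and 14.9 CPM of Itgb1, was the most uneven of the 22 pairs of libraries for this gene.

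Cd44 was 302, 181 and 320 CPM in N+P C5, above all Naive samples (log2 fold change 2.40, SE 0.52, adjusted p = 0.124). Itga4 was 398, 472 and 616 CPM (log2 fold change 1.90, SE 0.46, adjusted p = 0.193), Itgal was 677, 459 and 749 CPM (1.37, SE 0.31, adjusted p = 0.14) and Itgb2 was 570, 382 and 309 CPM (0.81, SE 0.36, adjusted p = 0.764). None of these 4 passed with edgeR on all 30 samples, although none overlapped. With Itgb1 they made 5 of 10 genes with an unadjusted p under 0.05, all higher, where 5.33% of all genes had one. Itgb1, Cd44, Itga4 and Itgal were called by DESeq2 (5.44% of all genes) and by edgeR without the samples with few genes (0.614%). Limma voom called these and Itgav (3.4%). Itgae (21.96, 35.7 and 31.4 CPM, below Naive) and Itgav (51.6, 39.0 and 87.6 CPM, above Naive) brought the genes without overlap to 7 of 10, against 12.9% of all genes. The median log2 fold change was 1.09, beside 0 over all genes.

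Ly6c2 did not share that order. It was 309, 272 and 173 CPM in N+P C5, overlapping the Naive samples, so that N+P C5 combined high Itgb1 and Cd44 levels with a Ly6c2 level near Naive.

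Within N+P mice, Itgb1 was the only gene of all 19657 called between C5 and C1 (0.00509%). It rose 8.53-fold (log2 fold change 3.09, SE 0.54, adjusted p = 0.0498), and was higher in C5 than in C1 in each of the 3 mice when samples with the same number are taken as the same mouse. The call was lost without any 1 of the N+P C1 samples and without N+P C5 replicate 1 or 3, with adjusted p up to 1. Cd44 followed with a log2 fold change of 2.46 (SE 0.52, adjusted p = 0.464), then Itga4 (1.13, SE 0.45, adjusted p = 0.919) and Itgal (1.02, SE 0.31, adjusted p = 0.919). Those 4 had an unadjusted p under 0.05, where 4.31% of all genes had one, and 7 of 10 genes did not overlap, against 10.8%. Fitted with the replicate number as a block, both Itgb1 and Cd44 were called (0.219% of all genes). DESeq2 and limma voom each called Itgb1, Itgal and Cd44 (4.53% and 2.06% of all genes). In the same pairs of samples Itga4, Itgal, Itgb2, Itgav and Cd44 were also higher in C5 in all 3 mice, and Itgae and Ly6c2 lower.

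**Figure D2:**
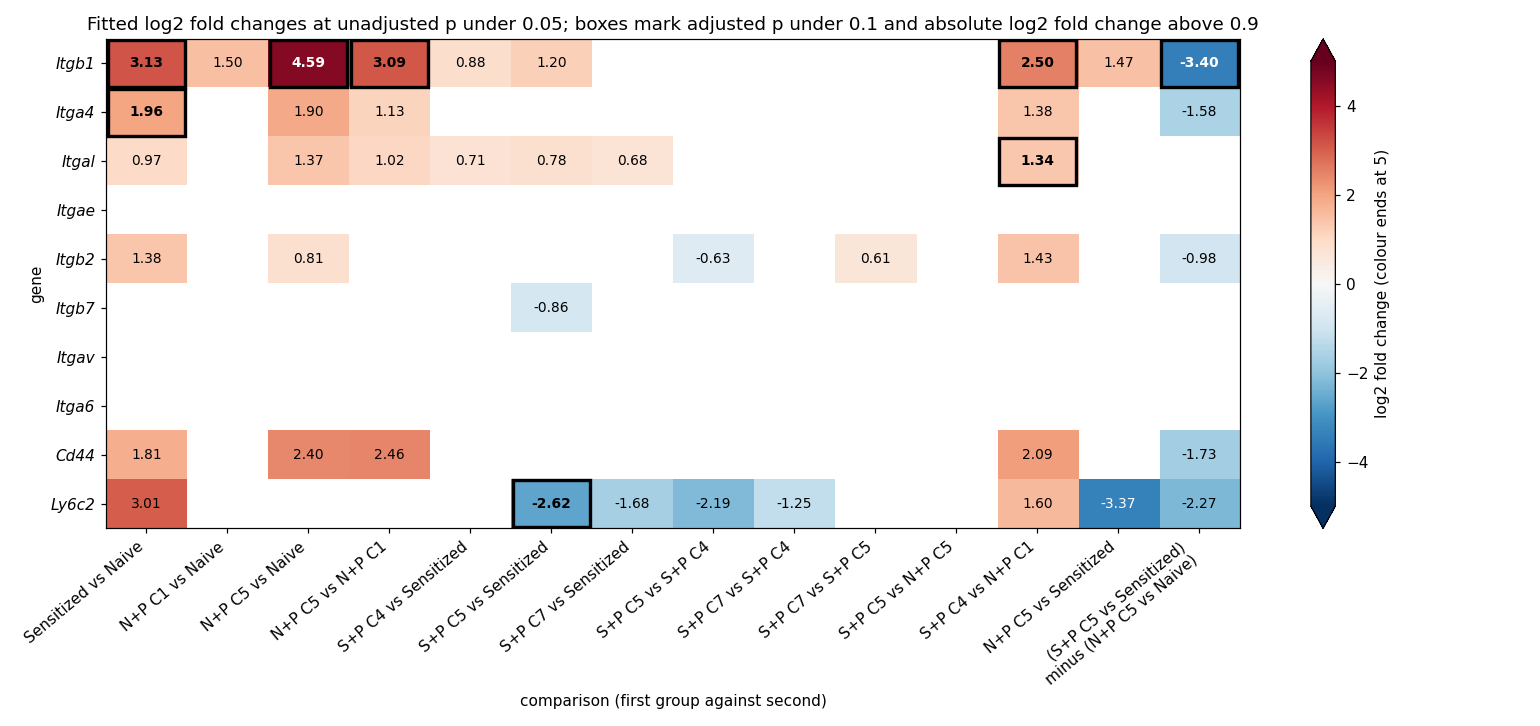
Fitted log2 fold change (colour and number) of the 10 genes (rows) in 13 comparisons and in the difference of 2 of them (columns), shown where the unadjusted p was below 0.05; boxes mark the called ones. The Itgb1 row holds 5 of the 8 boxes, among them 4.59 for N+P C5 against Naive, and the Ly6c2 row holds the only box for a pair of groups below 0, -2.62 for S+P C5 against Sensitized.

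The subsets of S+P mice were set beside Sensitized T FGS, from which they differ by the pregnancy and by the subset named in the label. In the PD1- subset S+P C4 no gene of the 10 was called by edgeR, DESeq2 or limma voom, which called 0.00509%, 4.97% and 0.427% of all genes. Itgal was 547, 807 and 1031 CPM (lowest, median and highest) in C4 against 419 to 581 CPM in Sensitized (log2 fold change 0.71, SE 0.25, p = 0.00711, adjusted p = 0.317), and Itgb1 had a log2 fold change of 0.88 (SE 0.40, p = 0.0382, adjusted p = 0.364). These were the 2 genes with an unadjusted p under 0.05, where 12.7% of all genes had one. Ly6c2 in C4 was 742, 1623 and 3068 CPM, overlapping Sensitized. The median log2 fold change was 0.21 over the 10 genes and -0.14 over all genes.

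In S+P C5, Ly6c2 fell to 0.163 of its Sensitized level. The 6 samples had 109, 331 and 1116 CPM as lowest, median and highest values, all below the lowest Sensitized sample at 1869 CPM. The mean was 423 ± 370 CPM (SD, n = 6) against 2600 ± 585 CPM (n = 4), a log2 fold change of -2.62 (SE 0.55, adjusted p = 0.07). It was 1 of 14 genes called (0.0712%). The call was lost with 9 of the 10 samples of these groups left out in turn, at adjusted p up to 0.251, while the log2 fold change stayed between -3.19 and -2.42. The 1 sample whose removal kept it was S+P C5 replicate 1, at 1116 CPM.

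Itgb1 and Itgal lay higher in S+P C5 than in every Sensitized sample without being called by edgeR on all 30 samples. Itgb1 was called by limma voom (3.98% of all genes), but not by DESeq2 (5.33%). EdgeR called it without the 3 samples with few genes (1.02%) and with only the groups compared in the fit (1.06%). Itgb1 was 898 ± 225 CPM (n = 6) against 392 ± 77.8 CPM (n = 4), a log2 fold change of 1.20 (SE 0.41, adjusted p = 0.277). Itgal was 629, 788 and 1123 CPM as lowest, median and highest values, with a log2 fold change of 0.78 (SE 0.25, adjusted p = 0.277). Itgb7 was 110, 201 and 405 CPM against 257 to 546 CPM in Sensitized (log2 fold change -0.86, SE 0.42, p = 0.05, adjusted p = 0.385). With Ly6c2 these were 4 of 10 genes with an unadjusted p under 0.05, where 13% of all genes had one. Counting Itgav, which was 37.9, 60.3 and 108 CPM in C5, 4 of 10 genes did not overlap, against 2.88% of all genes. The median log2 fold change was 0.26, beside -0.01 over all genes.

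S+P C7, the PD1+CD73- subset, held Ly6c2 at 2513, 407, 631, 337 and 176 CPM. Its first sample lay within the Sensitized range and the other 4 below it, giving a log2 fold change of -1.68 (SE 0.57, p = 0.00636, adjusted p = 0.473). Without that first sample, which is the one made from the averaged libraries, the log2 fold change was -2.75 and Ly6c2 was called (adjusted p = 0.0556). Itgal was 1050, 492, 650, 760 and 868 CPM (log2 fold change 0.68, SE 0.25, p = 0.012, adjusted p = 0.473). With all samples no gene of the 10 was called, against 0.0305% of all genes, and these 2 had an unadjusted p under 0.05, against 10.2%. Limma voom called Ly6c2 alone of the 10 (1.82% of all genes), and DESeq2 called 0 (4.06%).

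Among the 3 subsets of S+P mice, no gene of the 10 was called in any pair. Ly6c2 was lower in C5 than in C4 in the fitted means (log2 fold change -2.19, SE 0.51, p = 0.000169, adjusted p = 0.207), and 6 genes of all were called there (0.0305%). Without S+P C5 replicate 1 the Ly6c2 difference was called (log2 fold change -2.76, adjusted p = 0.0547). For C7 against C4 the log2 fold change of Ly6c2 was -1.25 (SE 0.53, p = 0.025, adjusted p = 0.25; 1 gene of all called, 0.00509%). Itgb2 was 344, 525 and 854 CPM in C5, 580, 754 and 1385 CPM in C4 and 1233, 735, 845, 663 and 771 CPM in C7. Its log2 fold change was -0.63 (SE 0.26, p = 0.0206, adjusted p = 0.299) for C5 against C4 and 0.61 (SE 0.27, p = 0.0303, adjusted p = 0.312) for C7 against C5, where no gene of all was called (0%). At an unadjusted p under 0.05 these comparisons held 2, 1 and 1 of the 10 genes, against 13.3% (C5 against C4), 15.9% (C7 against C4) and 12.7% (C7 against C5) of all genes. DESeq2 called Ly6c2 alone of the 10 between C5 and C4 (5.25% of all genes). With same-numbered samples taken as the same mouse, Ly6c2 and Itgb7 were lower in C5 than in C4 in 6 of 6 mice. Ly6c2 was lower in C7 than in C4 in 5 of 5. Against C5, C7 was higher in Ly6c2 and in Itgb2 and lower in Itgb1, each in 5 of 5. The share of all genes with signs this uniform is not given here. The first C7 sample of these pairs is the averaged one.

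Cd44 and Itga4 overlapped among those subsets. Cd44 had lowest, median and highest values of 141, 191 and 293 CPM in C4 and 144, 288 and 403 CPM in C5, and 133, 75.9, 223, 251 and 272 CPM in the C7 samples. Itga4 had 214, 564 and 1082 CPM in C4 and 504, 634 and 784 CPM in C5, and 583, 393, 757, 677 and 618 CPM in C7.

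The same PD1+CD73+ phenotype could be set side by side in mice with and without prior sensitization. For this pair no gene of the 10 was called and none had an unadjusted p under 0.05, against 0% called and 5.88% with such a p among all genes. DESeq2 called 0 of the 10 (4.12% of all genes) and limma voom called Itgae (1.64%). The samples overlapped for each of the 10 genes, Itgb1 lying between 566 and 1113 CPM in S+P C5 and between 631 and 1350 CPM in N+P C5.

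Between the PD1- subsets, S+P C4 and N+P C1, Itgb1 and Itgal were called higher in S+P C4. Itgb1 rose 5.67-fold (log2 fold change 2.50, SE 0.49, adjusted p = 0.0349), although S+P C4 replicate 3, with fewer than 9000 genes detected, lay within the N+P C1 range at 115 CPM. Itgal rose 2.53-fold (log2 fold change 1.34, SE 0.28, adjusted p = 0.0687), from 252, 305 and 370 CPM to at least 547 CPM. Itgb2 (log2 fold change 1.43, SE 0.34, adjusted p = 0.17), Cd44 (2.09, SE 0.48, adjusted p = 0.143), Itga4 (1.38, SE 0.41, adjusted p = 0.443) and Ly6c2 (1.60, SE 0.65, adjusted p = 0.449) did not pass. Of all genes 0.061% were called, 9.23% had an unadjusted p under 0.05 (6 of the 10 here) and 3.29% did not overlap (4 of the 10). Both calls were lost without any 1 of the 3 N+P C1 samples, and that of Itgal also without S+P C4 replicate 1 or 4. Without the 3 samples with few genes, 5 of the 10 were called (0.706% of all genes). With no filter on low counts and with only the groups compared in the fit both calls were lost. By DESeq2 Itgb1, Itga4, Itgal, Itgb2 and Cd44 were called (5.67% of all genes), and by limma voom these and Itgae (4.2%).

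N+P C5 against Sensitized sets the PD1+CD73+ cells of pregnant mice without a graft beside the cells of grafted mice without a pregnancy. No gene of the 10 was called (0.0102% of all genes) by edgeR, while DESeq2 and limma voom each called the same 2, Itgb1 and Ly6c2 (5.43% and 2.12% of all genes). Itgb1 was higher in all N+P C5 samples (log2 fold change 1.47, SE 0.46, adjusted p = 0.599) and Ly6c2 lower in all of them (-3.37, SE 0.74, adjusted p = 0.293). These 2 genes had an unadjusted p under 0.05, where 8.05% of all genes did, and with Itgav 3 of 10 did not overlap, against 7.47%.

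**Figure D3:**
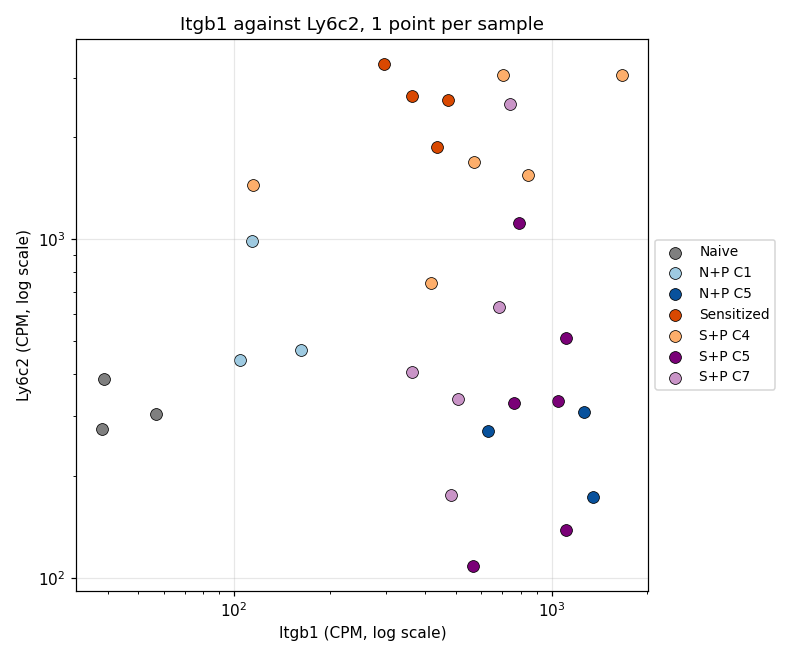
CPM of Itgb1 (horizontal, log scale) and Ly6c2 (vertical, log scale) in the 30 samples, coloured by group. Naive samples lie low on both axes, Sensitized samples at 297 to 472 CPM of Itgb1 with at least 1869 CPM of Ly6c2, and N+P C5 samples at 631 CPM or more of Itgb1 with at most 309 CPM of Ly6c2.

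Whether the step from unmated mice to the C5 subset was the same with and without a graft was tested directly, as the S+P C5 against Sensitized difference minus the N+P C5 against Naive difference. For Itgb1 the steps differed: the log2 difference between the 2 steps was -3.40 (SE 0.65, adjusted p = 0.0529), with steps of 1.20 in sensitized and 4.59 in naive mice. Itgb1 was 1 of 5 genes called (0.0254%). The end points overlapped, and the starting points, 38.5 to 56.9 CPM in Naive and 297 to 472 CPM in Sensitized, did not. The call was lost when any Naive sample, N+P C5 replicate 1 or 3, Sensitized replicate 3 or 4, or any S+P C5 sample but replicate 2 was left out, with limma voom, with no low count filter and with every library kept (adjusted p from 0.0459 to 0.659 over the samples left out, and up to 0.792 over the other alternatives).

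Ly6c2 (-2.27, SE 0.89, adjusted p = 0.649), Cd44 (-1.73, SE 0.63, adjusted p = 0.649), Itga4 (-1.58, SE 0.56, adjusted p = 0.649) and Itgb2 (-0.98, SE 0.46, adjusted p = 0.747) also had negative differences of the steps and did not pass. For 5 of 10 genes the unadjusted p was under 0.05, where 6.42% of all genes had one. The Ly6c2 step was -2.62 in sensitized mice, whereas for Itgb1 both steps were upward in the fit. The comparisons with Naive share the Naive samples, and those with Sensitized share the Sensitized samples, so their values are given side by side only.

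The partner chains were compared within each sample per kilobase of canonical transcript, so that gene length drops out. In Naive T FGS the ratio of Itgb1 to Itgb7 was 0.0482, 0.0599 and 0.0644, and in N+P C1 it was 0.124, 0.136 and 0.231. It was 1.29, 0.867 and 2.33 in N+P C5, and 0.291, 0.757, 0.597 and 0.559 in Sensitized. The lowest, median and highest ratios were 0.486, 0.790 and 2.97 in S+P C4 and 1.04, 2.19 and 5.39 in S+P C5, while C7 lay between 0.605 and 2.09. Itgb7 transcripts thus outnumbered those of Itgb1 in every Naive, N+P C1 and Sensitized sample, and the order was turned round in all 6 S+P C5 samples.

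Ly6c2 to Cd44, the pair of memory marks, was compared the same way. The ratio was 71.1, 37.3 and 36.7 in Naive, 196, 107, 69.6 and 70.2 in Sensitized, and 6.92, 10.2 and 3.66 in N+P C5. Its lowest, median and highest values were 23.8, 68.6 and 147 in S+P C4 and 2.32, 6.34 and 52.4 in S+P C5, and the C7 samples had 127, 36.2, 19.1, 9.09 and 4.36. All N+P C5 samples and all S+P C5 samples thus lay below all Sensitized samples, whereas S+P C4 overlapped them.

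The LFA-1 chains had a narrower ratio. Itgal to Itgb2 had group medians between 0.403 in Sensitized and 0.836 in S+P C5, with single samples from 0.363 to 1.85. The level of Itgb7 itself had group means of 420 CPM in Naive, 426 CPM in N+P C1, 408 CPM in N+P C5 and 411 CPM in Sensitized. It was lowest in S+P C5 at 226 ± 117 CPM (n = 6), and the samples of S+P C5 overlapped those of every other group. Per kilobase, Ly6c2 had the highest mean of the 10 genes in each of the 7 groups, and Itgb1 moved from rank 9 in Naive to rank 2 in N+P C5.

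**Figure D4:**
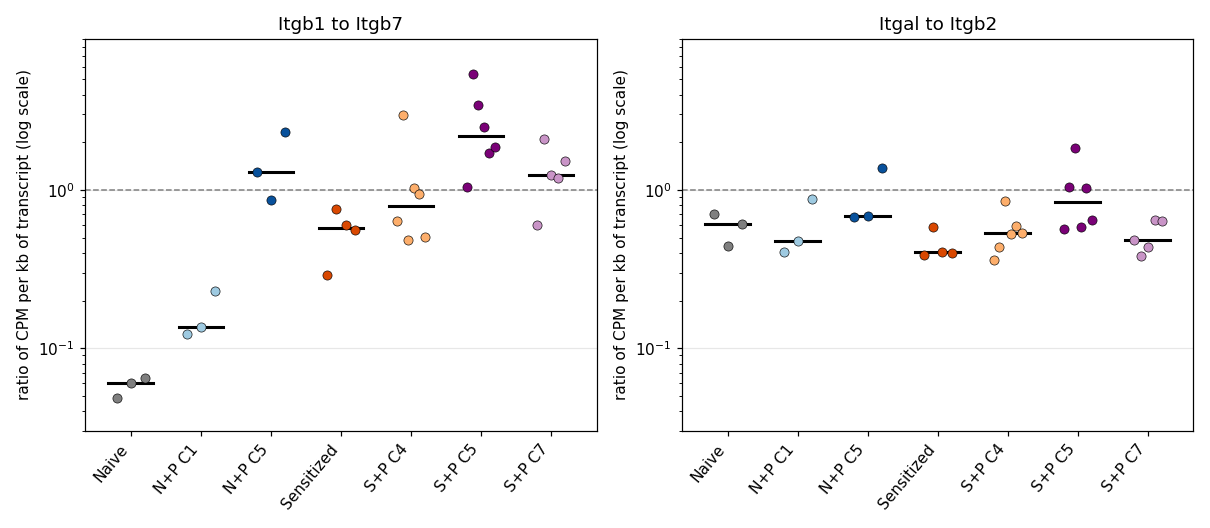
Ratio of Itgb1 to Itgb7 (left) and of Itgal to Itgb2 (right) in each sample, as CPM per kilobase of canonical transcript on a log scale, by group. Points are samples, black lines are group medians and the dashed line marks equal levels. The Itgb1 to Itgb7 ratio goes from at most 0.0644 in Naive to at least 1.04 in S+P C5, and the Itgal to Itgb2 ratio stays between 0.363 and 1.85.

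Itgae, which encodes CD103, had its highest group means in Naive and N+P C1 and was not called by edgeR or DESeq2 in any comparison. Limma voom called it in S+P C5 against Sensitized and against N+P C5, and in S+P C4 against N+P C1. It was 71.2, 70.0 and 113 CPM in N+P C1, overlapping the Naive samples. In S+P cells the lowest, median and highest values were 0.156, 5.18 and 33.1 CPM in C4 and 0, 4.89 and 33.7 CPM in C5, and the C7 samples had 0.0464, 145, 0.488, 6.88 and 0 CPM. The 145 CPM belonged to S+P C7 replicate 3, the sample with the erythroid and NK transcripts given above, whose part in this value was not tested. At most 3 reads were counted in 2 of 6 C4, 1 of 6 C5 and 2 of 5 C7 samples. In 5 of the 22 pairs of technical libraries only 1 library of the pair had more than 3 reads of Itgae.

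Itgav and Itga6 were the other genes of low level. Neither was called by edgeR or DESeq2 in any comparison of groups, while limma voom called Itgav in 2 of them, S+P C5 with Sensitized and N+P C5 with Naive. Itgav, whose product binds vitronectin and other RGD ligands, was between 15.6 and 17.1 CPM in N+P C1, and its highest sample, S+P C4 replicate 2 at 207 CPM, was also the sample with the most Trgc2, a gamma delta T cell receptor gene (1374 CPM). The other 2 genes of that list, Trdc and Trgc1, were at most 4.79 and 4.03 CPM in S+P C4. Itga6 was 27.0, 71.0 and 76.8 CPM in N+P C1 and 37.9, 15.4 and 51.4 CPM in N+P C5. Its lowest, median and highest values were 0, 24.9 and 54.9 CPM in S+P C4 and 8.68, 27.5 and 90.6 CPM in S+P C5, and the C7 samples had 6.54, 0.42, 36.1, 20.3 and 28.8 CPM. The 3 lowest samples of all were those with fewer than 9000 genes detected.

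The error behind these values differed among the genes. Between the technical libraries of a sample the median absolute log2 ratio was 0.22 for Itga4, 0.31 for Itgb1, 0.32 for Itgal and Itgb2, 0.34 for Itgb7, 0.41 for Ly6c2 and 0.57 for Cd44, and it was 0.76 for Itgae and Itga6 and 0.87 for Itgav. The coefficient of variation between replicates, as the median over the 7 groups, was lowest for Itgal (19.9%) and Itga4 (22.5%) and highest for Ly6c2 (48.7%), Itga6 (52.2%) and Itgae (63.5%). Within S+P C7 the coefficient of variation of Ly6c2 was 119%.

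Of the adhesion genes around these 10, few were called. Among the other integrin chains 17 of 18 were tested. The only call in the 13 comparisons and the difference of steps was Itgax, which encodes CD11c. Its level was higher in Sensitized than in Naive T FGS (edgeR adjusted p = 0.0566). No read of Itgax was counted in the 3 Naive samples, while the Sensitized samples had 29.8 to 84.3 CPM. With a floor of 3 reads put in for each Naive sample, the Sensitized mean was 451-fold higher. Some samples of the S+P subsets C4 and C5 also held no read of Itgax, while others of the same subset reached 76.2 and 30.2 CPM. The ratio thus describes the counts and sets no lower bound on the difference in expression. Itgax was 2.95 to 11.8 CPM in N+P C5, 18.8 to 72.6 CPM in S+P C7, 0 to 76.2 CPM in S+P C4 and 0 to 30.2 CPM in S+P C5. Of 5 myeloid markers, Cd14 was at 0 in every Naive and Sensitized sample, Csf1r and Adgre1 were at most 0.4 CPM, Cd68 was at most 25.1 CPM in Naive and 12.9 CPM in Sensitized, and Lyz2 reached 40.5 and 332 CPM. Their summed level was 1.59 to 47.1 CPM in Naive and 4.05 to 345 CPM in Sensitized. Of 3 NK markers, Klrb1c was 53.3 to 126 CPM in Sensitized and at most 0.0823 CPM in Naive, Ncr1 was at most 1.9 CPM and Klra8 at most 0.05 CPM in both groups. The study's antibody list has CD11c, F4/80 and NK1.1 (the product of Klrb1c) in the colour of an exclusion channel of its cytometry panels, a gate that would remove cells with these proteins. Which of these antibodies the sort itself used is not given in the sources used here, and the part of such cells in the Itgax difference was not tested.

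Over all groups at once Itgax (adjusted p = 0.0197) and Itgb8 (adjusted p = 0.0965) passed. Itgb8, which pairs with Itgav to activate latent TGF-beta, was 3.13 to 11.1 CPM in N+P C5 and 0 to 38.2 CPM in S+P C5, and at most 0.486 CPM in Naive, Sensitized, N+P C1 and S+P C4. Itga1, a collagen receptor chain and partner of Itgb1, was 24.1 to 61.3 CPM in Sensitized and 14.7 to 445 CPM in S+P C4, and at most 1.92 CPM in Naive, 7.47 CPM in N+P C1 and 0.63 CPM in N+P C5. It did not pass (adjusted p = 0.119). Itga5, the fibronectin receptor chain, was at most 12.5 CPM and Itgam at most 21.0 CPM in any sample.

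In the other lists no gene was called in any comparison by edgeR, the one tool run on them. This held for 22 tested of 24 genes that activate integrins or link them to the cytoskeleton (0 to 5 with an unadjusted p under 0.05 in a comparison), 5 of 6 integrin ligands (0 to 3), 4 genes of CD44 linkage and hyaluronan binding (0 to 1) and 5 of 7 other Ly6 genes (0 to 2). Over the same comparisons 3.23 to 15.9% of all genes had such a p. In N+P C5 against Naive, where Itgb1 rose most, the activation and linkage genes had a median log2 fold change of -0.06 and those of CD44 linkage -0.23.

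Across the 30 samples the levels of Itgb1, Itga4, Itgal and Cd44 went together, as log2(CPM + 1). Pearson's r was 0.877 for Itgb1 and Itga4, 0.791 for Itgb1 and Cd44, 0.777 for Itgb1 and Itgal, and 0.07 for Itgb1 and Ly6c2. Without the 3 samples with few genes these were 0.861, 0.869, 0.874 and 0.034. Itgb2 was the member closest to Ly6c2 (0.515). Itgae had an r of -0.663 with Itgal and of 0.352 with Itga6. The samples share group means, so these values describe the groups as much as the cells within them.

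Among 6461 genes with a mean of at least 20 CPM, the 3 most like Itgb1 were Itga4, Hip1 (r = 0.871) and Casp4 (0.853), and the same genes were most like Itga4. The genes closest to Itgal were AU020206 (0.836), Ikzf3 (0.815) and S100a6 (0.805), those closest to Itgb2 were Myo1f (0.918), Lgals1 (0.859) and Ccl5 (0.842), and those closest to Itgb7 were Hid1 (0.842), Bin2 (0.819) and Rrs1 (0.818). Cd44 was most like Bcl2a1b (0.801), Itgb1 and Itga4, and Ly6c2 was most like Gm19585 (0.769), Ifngr1 (0.767) and Gm33104 (0.757). The closest to Itgae were Rapgef4 (0.785), E430014B02Rik (0.78) and Il6st (0.76), and to Itgav Sh3bgrl (0.86), Rap1a (0.851) and Stag1 (0.849). For Itga6 they were Gspt1 (0.921), Larp4 (0.92) and Pno1 (0.918), whose r was at most 0.655 without the 3 samples with few genes. Of the 30 genes named here as most alike, 4 stayed among the top 3 without those samples, Itga4 being then at rank 13 for Itgb1, and the lowest fell to rank 54.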

How the data were processed

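RNA was measured by SmartSeq2 from 200 sorted T FGS per sample, with all libraries in 1 sequencing run. Per the labels and the submitters' processing notes, the authors trimmed reads with cutadapt 3.4, aligned them to GRCm39 with STAR 2.6.1b and counted them per gene with featureCounts 2.0.1. The deposited values are raw counts. Technical libraries of 1 sample were summed. With edgeR 4.0.16 in R 4.3.3, genes were filtered by filterByExpr (minimum count 10), scaled by TMM and fitted over all 7 groups with robust quasi-likelihood, and CPM were computed from the TMM-scaled totals. The script was tested on simulated data. DESeq2 1.42.0 and limma 3.58.1 served as alternatives. A member is named with a fold change where its unadjusted p was below 0.05, and likeness is Pearson's r of log2(CPM + 1). The members and lists were chosen with earlier results of these data known.

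Samples with the same number were taken as subsets of the same mouse within N+P and within S+P. Their column codes share a number, but the labels do not say outright that the mouse is the same. Their deviations correlated with a mean r of 0.0652 (N+P C5 and C1), 0.131 (S+P C5 and C4), 0.201 (S+P C7 and C4) and 0.138 (S+P C7 and C5). Between other groups numbers were not used as pairs. The gene with the most reads took 4.8 to 26.4% of the counts of a sample.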

Additional observations from a re-analysis of the deposited data

Results flagged for a closer look

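Values of 4 samples of these genes lay far from the rest of their group by Dixon's criterion, among 40 sets examined (each gene in each group of 4 to 6 samples). Chance gives about 1 such value in 20 groups.

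Itgae was 145 CPM in S+P C7 replicate 3, where the next sample had 6.88 CPM, and 33.7 CPM in S+P C5 replicate 3, where the next had 8.22 CPM. Itgav was 207 CPM in S+P C4 replicate 2, where the next sample had 69.1 CPM. Ly6c2 was 2513 CPM in S+P C7 replicate 1, where the next sample had 631 CPM. Replicate 1 also held the highest Ly6c2 of every other group but Naive, with the values given below. S+P C7 replicate 3 and S+P C4 replicate 2 are among the samples with fewer than 9000 genes detected, and S+P C7 replicate 1 is the sample that includes the averaged, nearly identical libraries.

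The step of Itgb1 from unmated mice to the C5 subset differed between mice with and without a graft, by a log2 difference of -3.40 (SE 0.65, edgeR adjusted p = 0.0529), the N+P C5 against Naive step being the larger. All 3 N+P C5 samples lay above all 3 Naive samples and all 6 S+P C5 samples above all 4 Sensitized samples.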

How the results depend on the processing

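Of the 140 fold changes, the 41 with an unadjusted p under 0.05 were recomputed, and none of these turned its direction. The counts of the 10 genes called under no minimum fold change were those given above. Counted over every pairing of a fold change with a setting other than left-out samples, a call was gained 53 times and lost 18 times, and neither happened 252 times. Among all genes, edgeR called 0 to 0.153% in a comparison, DESeq2 3 to 5.87%, limma voom 0.376 to 4.2%, edgeR without the samples with few genes 0 to 1.02%, and edgeR on only the groups compared 0 to 1.06%.

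With DESeq2, 6 genes were called between Sensitized and Naive (2 with edgeR) and 4 between N+P C5 and Naive (1). It called 3 between N+P C5 and N+P C1 (1) and 5 between S+P C4 and N+P C1 (2). It called 2 between N+P C5 and Sensitized (0) and 1 between S+P C5 and S+P C4 (0). Of all genes DESeq2 called 5.87, 5.44, 4.53, 5.67, 5.43 and 5.25% in these comparisons, in this order. With limma voom and sample weights the counts were 5 for Sensitized and Naive, 5 for N+P C5 and Naive, 3 for N+P C5 and N+P C1, 6 for S+P C4 and N+P C1, 2 for N+P C5 and Sensitized, 4 for S+P C5 and Sensitized (1), 1 for S+P C7 and Sensitized (0), 1 for S+P C5 and N+P C5 (0), 0 for the difference of steps (1) and 9 over all groups (6, with 17.3% of all genes against 1.84%). Of all genes limma voom called 2.9, 3.4, 2.06, 4.2, 2.12, 3.98, 1.82, 1.64 and, for the difference of steps, 0.631%, in this order. Without the 3 samples under 9000 genes the counts were 6, 4, 2 and 5 for the first 4 comparisons listed for DESeq2. They were 1 for N+P C5 and Sensitized, 2 for S+P C5 and Sensitized and 1 for N+P C1 and Naive (0). In this setting 0.782, 0.614, 0.0767, 0.706, 0.169, 1.02 and 0.0972% of all genes were called, in this order. With no low count filter 0 genes were called in Sensitized against Naive, N+P C5 against N+P C1, S+P C5 against Sensitized, S+P C4 against N+P C1 and the difference of steps. Without that filter 0.0347, 0, 0.0174, 0.00992 and 0.00496% of all genes were called, in this order. With RLE size factors 2 were called for N+P C5 and Naive (0.056% of all genes). With every library kept 1 was called for Sensitized and Naive, 1 for S+P C4 and N+P C1 and 0 for the difference of steps. There 0.101, 0.0504 and 0.00504% of all genes were called, in this order. With only the groups compared in the fit 3 genes were called for Sensitized and Naive (Itgb1, Itgb2 and Ly6c2, without Itga4). The counts were 2 for N+P C5 and N+P C1 and 2 for S+P C5 and Sensitized. They were 0 for S+P C4 and N+P C1 and 1 for N+P C5 and Sensitized. In this fit 0.735, 0.386, 1.06, 0.0442 and 0.332% of all genes were called, in this order.

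With the replicate number as a block, 0 genes were called for Sensitized and Naive, 2 for N+P C5 and N+P C1 (Itgb1 and Cd44), 1 for S+P C4 and N+P C1 (Ly6c2, while Itgb1 and Itgal were lost) and 1 for N+P C5 and Sensitized (Ly6c2), where 0 to 0.219% of all genes were called. The block moved no other count. By the labels same-numbered samples of differently treated mice share only a number, with a mean r of their deviations from 0.0042 to 0.0525. For Ly6c2, however, replicate 1 was the highest sample of Sensitized (3298 CPM), N+P C1 (992 CPM) and N+P C5 (309 CPM). It was also the highest of S+P C4 (3068 CPM), C5 (1116 CPM) and C7 (2513 CPM), but the lowest of Naive (275 CPM). Itgb7 was likewise highest in replicate 1 of every group but Naive. The source of this pattern was not tested.

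With 1 sample left out at a time the count of called genes was 0 to 2 for Sensitized against Naive, 0 to 1 for N+P C5 against N+P C1, 0 to 4 for S+P C4 against N+P C1, 0 to 1 for S+P C5 against Sensitized, 0 to 1 for S+P C7 against Sensitized, 0 to 1 for S+P C5 against S+P C4 and 0 to 1 for the difference of steps. It stayed at 1 for N+P C5 against Naive. The share of all genes called in these runs is not given here. The Itga4 call for Sensitized against Naive was lost without any of the 7 samples but Sensitized replicate 1 (adjusted p up to 0.81), and that of Itgb1 without Naive replicate 1 (adjusted p = 0.105). Over all genes, the count called for Sensitized against Naive was 30 with edgeR, 1078 with DESeq2 and 571 with limma voom, and for N+P C5 against Naive it was 8, 998 and 669. The cause of these changes was not tested. The groups of 3 leave few samples for each of these tests.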
